A study of Mus musculus with 3072 samples.

Results

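The cells described here were the Apoe-silent microglia of the APP/PS1 mouse brain, that is, the cells of APP/PS1 cortex and hippocampus at 17 months in which not a single read was assigned to Apoe. They were chosen by that count alone, so the absence of Apoe reads is how the cells were selected and not a result. The rule took 62 of the 584 APP/PS1 cells, 24 of them from cortex and 38 from hippocampus. The series had 1713 cells with counts and a read total in their labels. Another 165 cells with counts had no such total and were left out. All other cells of the same tissues with at least 1 Apoe read, 287 in cortex and 235 in hippocampus, were the comparison, and within each tissue these were cut into 3 bins of near-equal size by Apoe reads per 10000 reads, called low-Apoe, middle-Apoe and high-Apoe cells below.

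The study sorted live CD11b+ cells (CD11b+/DAPI-) from dissected brain and sequenced each cell by itself with a modified SmartSeq2 method, which gives reads along whole transcripts and carries no molecular identifiers. APP/PS1 mice (APPswe/PS1dE9, male, 17 months) carry human APP and presenilin transgenes with familial Alzheimer mutations and form amyloid plaques. The background is given by 3 knockout groups and a wild-type group: APP/PS1-ApoeKO cortex and hippocampus and C57BL/6-ApoeKO cortex, in which Apoe is deleted in every cell, and C57BL/6 cortex, all male and 18 months old. The knockout animals came from crosses with a C57Bl/6-Apoe null line, so they can differ from APP/PS1 also at genes near Apoe. The labels name no animals, so each tissue is a single sample, the cells of a tissue are not replicates, no test was possible and every interval given covers counting error only. As amplified reads are not independent molecules, intervals on read counts are too narrow. The 18-month APP/PS1 samples were not used here.

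Apolipoprotein E carries cholesterol and phospholipids between cells. In healthy brain most of it comes from astrocytes, and microglia make little. Around amyloid plaques microglia pass into an activated state in which Apoe, lysosomal proteases and lipid-handling genes are strongly induced, through signalling by the lipid receptor Trem2 and its adaptor Tyrobp, while homeostatic genes such as P2ry12 and Tmem119 decline. Apoe lies on chromosome 7 (mm10, 19696109 to 19699188, minus strand, protein-coding).

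Silent cells made up 7.72% of APP/PS1 cortex cells (24 of 311, exact 95% binomial interval 5.01 to 11.3%) and 13.9% of hippocampus cells (38 of 273, 10.04 to 18.6%). The hippocampal share was higher and the intervals overlapped. Both tissues were sequenced on the same pair of lanes, and the order held in each: 9.15% against 13.2% on lane 41 and 6.33% against 14.6% on lane 42. Across the 4 plate numbers recorded for the cells the share ran from 6.19 to 10.7% in cortex and from 10.9 to 15.96% in hippocampus. These plate numbers do not follow the plate in the sample titles. Wells of the same titled plate can carry different plate numbers, which go partly with the well position. They are therefore not taken as physical plates or batches, only as parts of the wells. By the titled plates the share ran from 6.25 to 11.7% in cortex and from 12.3 to 14.9% in hippocampus. After every cell was thinned to 100000 reads, 11.6% of cortex cells and 17.3% of hippocampus cells had no Apoe read.

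In C57BL/6 cortex 68.4% of cells (223 of 326) had no Apoe read, so the silent state was the usual one there and the uncommon one in APP/PS1. In the knockouts 97.6% (APP/PS1-ApoeKO cortex), 99.1% (APP/PS1-ApoeKO hippocampus) and 98.4% (C57BL/6-ApoeKO cortex) of cells had none. The 2.37%, 0.935% and 1.60% of knockout cells that did hold a read give the background of Apoe reads in cells that cannot make intact Apoe. In APP/PS1-ApoeKO cortex none of these 4 cells had more than 2 reads, whereas 2 cells each of APP/PS1-ApoeKO hippocampus and C57BL/6-ApoeKO cortex had more than 10, up to 86 and 414.

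Cells with only a few Apoe reads were uncommon, and a gap separated them from the rest. In cortex 9 cells had exactly 1 Apoe read, 17 cells had 1 to 10 reads (the highest of them 4), and the next cells had 18, 41 and 76. In hippocampus 9 cells had 1 read, 15 had 1 to 10 reads (the highest of them 7), and the next cells had 21, 84 and 90. The Apoe-positive cells had a median of 4600 reads in cortex and 2485 in hippocampus, and up to 91611 and 147382. Cells with 1 to 10 reads were 5.47% of cortex cells (3.22 to 8.61%) and 5.49% of hippocampus cells (3.11 to 8.90%), against 2.37% in APP/PS1-ApoeKO cortex, 0.312% in APP/PS1-ApoeKO hippocampus, 0.958% in C57BL/6-ApoeKO cortex and 3.07% in C57BL/6 cortex. Counting every cell with at most 10 reads as silent raised the shares to 13.2% and 19.4%.

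**Figure D1:**
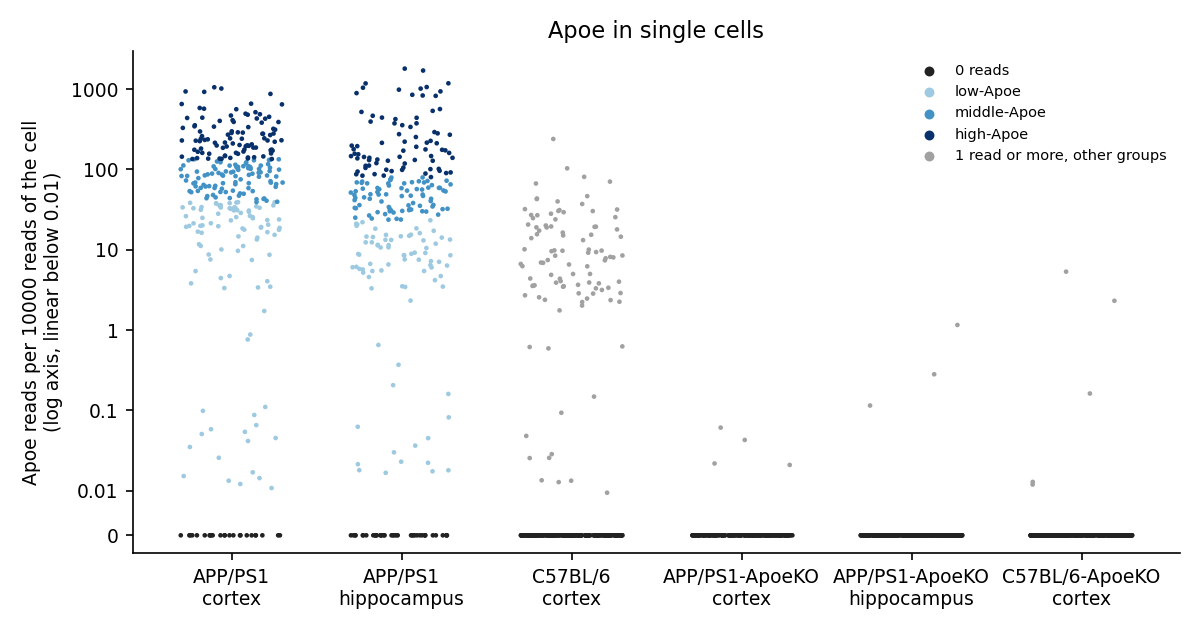
Apoe reads per 10000 reads in every cell (vertical axis, log scale above 0.01 and linear below it, with cells without an Apoe read at 0), by group; each point is 1 cell, coloured by bin in APP/PS1. The silent cells form the row at 0, 24 of 311 in APP/PS1 cortex and 38 of 273 in hippocampus, against 223 of 326 in C57BL/6 cortex.

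The silent cells were sequenced nearly as deeply as the rest. Their median total was 586356 reads per cell in cortex and 554904 in hippocampus, against 618123 and 582808 in Apoe-positive cells, and they held a median of 2115.5 and 1966.5 genes against 2237 and 2143. Thinned to 100000 reads, the gene medians were 1876.5 and 1748 against 1966 and 1900.5. When the cells of a tissue were cut into 3 bins by depth, silent cells were 6.80%, 11.5% and 4.81% of the shallowest, middle and deepest cortex bins and 13.2%, 14.3% and 14.3% of the hippocampal ones. Mitochondrial reads had a median of 1.93% and 1.76% in silent cells and 2.39% and 2.09% in Apoe-positive cells. The part of depth or RNA quality in the results below was not tested. No pair of cells had identical counts.

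The silent cells carried the transcripts that define microglia. Of 6 identity genes, Csf1r and Cx3cr1 among them, a silent cell held reads of 6 in the median and of no fewer than 5. Cx3cr1, the fractalkine receptor, was at 11740 reads per 1000000 reads (RPM, from counts summed over the cells of a bin) in silent cortex cells and 13288 in silent hippocampus cells, against 9597 and 10523 in Apoe-positive cells. Csf1r, the receptor on which microglia depend for survival, was at 7975 and 8295 RPM.

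Most markers of other brain and blood cells had few or no reads in them, with single genes as exceptions. Of 10 monocyte, 12 neutrophil and 8 neuron markers, none had a read in the silent cortex cells. In hippocampus 4 of 38 silent cells held a monocyte marker read and 1 held a neutrophil marker, up to 5.49 and 7.50 per 10000 reads, with medians of 0, and neuron markers stayed at 0. Of 10 markers of border-associated macrophages, Pf4, Cd163, Lyve1, F13a1, Ms4a7, Cbr2 and Cd209f were at 0 in the silent cells of both tissues, and the list's sum came almost wholly from Stab1, a scavenger receptor that microglia also transcribed here. Stab1 was at 364 and 538 RPM in silent cells and at 120 and 147 RPM in high-Apoe cells. Oligodendrocyte markers were read in 6 of 24 and 12 of 38 silent cells and astrocyte markers in 9 and 21, with medians of 0 in cortex and of 0 and 0.527 per 10000 in hippocampus. The astrocyte reads of silent cells came almost wholly from Slc1a3, a glutamate transporter gene, with reads in 9 and 21 cells. B cell markers were read in 13 of 24 and 18 of 38 silent cells, mainly Ighm, the immunoglobulin mu heavy chain, at 281 and 286 RPM, while Cd79a and Ms4a1 were at 0. T or NK cell markers were read in 1 and 2 silent cells, dendritic cell markers in 3 and 3 and endothelial or mural markers in 1 and 2, with medians of 0. The part of RNA from other cells in the results below was not tested.

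Nor did the silent cells show the expression pattern of the Apoe-null line. Hpgd, a prostaglandin dehydrogenase gene, was at 526 and 491 RPM in the cortex and hippocampus of APP/PS1-ApoeKO and at 27.4 and 20.8 RPM in the silent cells. Scoc stood at 168 and 166 RPM in those knockouts and at 14.8 and 18.9 RPM in the silent cells. Trim12a, Clgn and Trim30d, each read in knockout cells of both tissues, had no read in any silent cell. Colec12, a scavenger collectin, was at 0 in both knockouts and at 70.8 and 67.6 RPM in the silent cells.

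Genes followed the Apoe level across the bins in both directions. Lyz2, Ctsb, Ctsd, Cd63 and Fth1, genes of the lysosome and of early microglial activation, were lowest in silent cells and increased at every step towards the high-Apoe cells in both tissues. Tyrobp and Trem2 did so in cortex, whereas in hippocampus silent and low-Apoe cells stood level. Homeostatic genes such as P2ry12, Selplg and Sall1 ran the other way, with a smaller spread. The silent cells were closest to the low-Apoe cells in both respects.

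Lyz2, which encodes lysozyme, showed the widest spread among the abundant genes. It had reads in 16 of 24 silent cortex cells (66.7%) and 21 of 38 silent hippocampus cells (55.3%), with 66.7% and 52.6% after thinning, against 94 of 96 and 76 of 79 high-Apoe cells. Per cell it ran from 0 through a median of 2.95 to 18.5 per 10000 in silent cortex cells and from 0 through 25.8 to 102 in high-Apoe cells, and in hippocampus from 0 through 1.83 to 26.9 against 0 through 19.9 to 109. The ranges overlapped, and the highest silent cell lay below the median of the high-Apoe cells in cortex and above it in hippocampus. Over the bins from silent to high-Apoe, Lyz2 stood at 494, 1033, 1594 and 3178 RPM in cortex and at 476, 693, 844 and 3072 RPM in hippocampus. Against all Apoe-positive cells the log2 ratio was -1.99 in cortex and -1.70 in hippocampus.

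The cathepsins, the main proteases of the lysosome, behaved alike. Ctsb was read in every silent cell, with a median of 24.5 per 10000 (1.62 to 73.5) in cortex and 23.3 (0.238 to 64.3) in hippocampus, against medians of 57.2 (9.21 to 196) and 55.7 (0.0772 to 194) in high-Apoe cells. Its summed level from silent to high-Apoe was 3034, 3688, 4922 and 7508 RPM in cortex and 2612, 2826, 3731 and 7214 RPM in hippocampus. Ctsd stood at 6205, 7059, 8474 and 12549 RPM and at 5791, 6105, 7454 and 12215 RPM. Both genes thus increased at each step, and their largest step lay between the middle-Apoe and the high-Apoe cells.

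Cd63, a tetraspanin of late endosomes and secreted vesicles, was at 250, 416, 519 and 1021 RPM from silent to high-Apoe in cortex and at 146, 220, 450 and 757 RPM in hippocampus. It had a read in 18 of 24 and 17 of 38 silent cells. Fth1, the ferritin heavy chain that stores iron, ran from 1431 to 2782 RPM in cortex and from 1002 to 2376 RPM in hippocampus. Tyrobp, the signalling adaptor of Trem2, was at 1667 and 1642 RPM in silent cells and at 3617 and 3173 RPM in high-Apoe cells. Trem2 itself differed less, with 2661 and 2726 RPM in silent cells against 4416 and 4201 RPM in high-Apoe cells. All 62 silent cells but 1 in cortex held Trem2 reads, so reads of the receptor were present where those of Apoe were missing.

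Among homeostatic genes, P2ry12, the purinergic receptor that steers microglial processes, had a median of 54.9 per 10000 (4.42 to 148) in silent cortex cells and 31.4 (0.459 to 148) in high-Apoe cells. In hippocampus the medians were 60.3 (19.5 to 107) and 33.6 (0 to 83.5). The ranges overlapped throughout, and the medians of silent cells were the higher ones. P2ry12 summed to 6400, 5472, 4921 and 3794 RPM from silent to high-Apoe in cortex and to 5742, 5578, 5562 and 3856 RPM in hippocampus. Tmem119, a microglial membrane protein, was at 4376 and 4727 RPM in silent cells and at 2660 and 2914 RPM in high-Apoe cells. Sall1, a transcription factor that maintains microglial identity, was at 626 and 739 RPM against 454 and 438 RPM. Crybb1, a crystallin gene used as a marker of the homeostatic state, was at 328 and 299 RPM against 128 and 124 RPM. Log2 ratios of silent to all Apoe-positive cells were modest: 0.44 and 0.20 for P2ry12, 0.29 and 0.30 for Tmem119, 0.30 and 0.35 for Selplg, and 0.36 and 0.44 for Sall1.

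The silent cells were then set beside the other groups without Apoe reads. For Lyz2, Cd63 and Ctsb they were nearer to wild-type cells than to knockout cells of the same transgenic background. The wild-type cells are from cortex only, so silent hippocampus cells were set against another tissue. Age and sequencing lane also differ along with genotype between these groups and cannot be told apart. Lyz2 was at 425 RPM in C57BL/6 cells without Apoe reads, close to the 494 and 476 RPM of silent cells, and at 1059 and 968 RPM in APP/PS1-ApoeKO cortex and hippocampus. Cd63 was at 232 RPM in the wild-type cells and at 487 and 360 RPM in the knockouts, against 250 and 146 RPM in silent cells. Ctsb was at 3141 RPM in the wild-type cells and at 3815 and 3826 RPM in the knockouts, against 3034 and 2612 RPM in silent cells. The knockout groups hold all cells of their tissue that were kept here, activated ones included, whereas the silent cells are a chosen subset of theirs. Ctsd differed from this order, as silent cortex cells were nearer to the knockout. It was at 5335 RPM in wild-type cells, 6205 and 5791 RPM in silent cells and 6280 and 7158 RPM in the knockouts. The per-cell sums of gene lists described below were mixed too. Late activated genes had medians of 129 and 105 per 10000 in silent cortex and hippocampus cells. The knockouts stood at 128 and 129 and wild-type cells at 102. For homeostatic genes without Cst3 the medians were 658 and 740, 680 and 764, and 705, nearer to the knockouts in both tissues. For early activated genes without Cst3 they were 155 and 140, 190 and 189, and 145, nearer to wild-type cells in both.

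**Figure D2:**
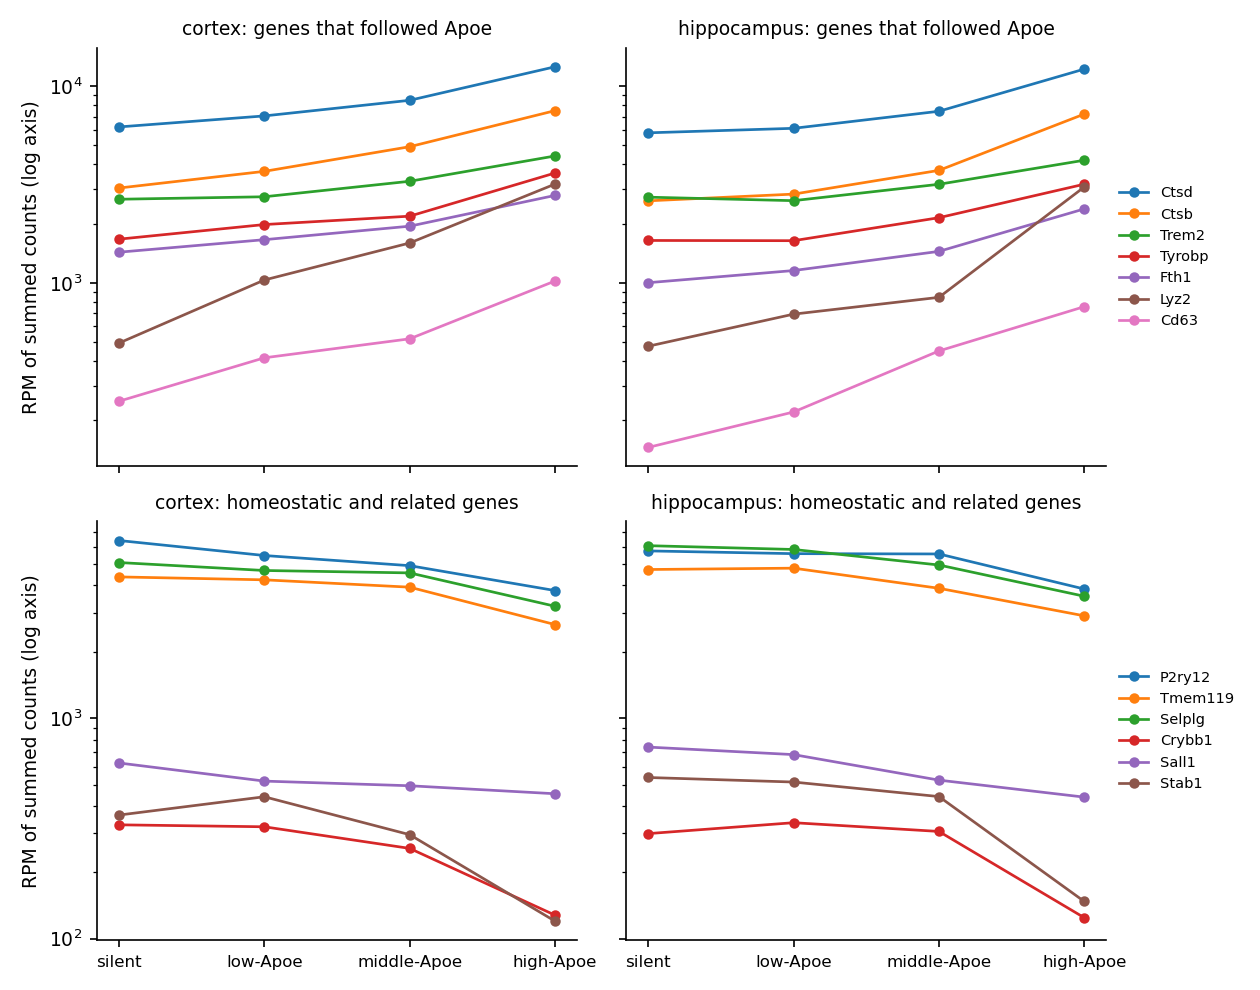
Level of 13 genes (vertical axis, RPM of summed counts, log scale) in silent, low-Apoe, middle-Apoe and high-Apoe cells (horizontal axis) of cortex and hippocampus; each point is 1 bin of cells and there are no replicates. Lyz2 and the cathepsin genes climb from silent to high-Apoe cells (Lyz2 from 494 to 3178 RPM in cortex), while P2ry12 declines (6400 to 3794 RPM).

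The genes best known from plaque-associated microglia were read in few silent cells, and for some of them the low-Apoe cells stood lower still. Cst7, which encodes the protease inhibitor cystatin F, was read in 2 of 24 silent cortex cells and 1 of 38 silent hippocampus cells, against 49 of 96 and 29 of 79 high-Apoe cells. It summed to 18.6, 88.8, 129 and 994 RPM from silent to high-Apoe in cortex and to 0.0471, 4.23, 9.18 and 425 RPM in hippocampus. The hippocampal value of silent cells rests on a single read. Clec7a, a receptor for beta-glucans, was read in 1 silent cell of each tissue, and 1 cortex cell held all of its 85.9 RPM there. Its level in low-Apoe cortex cells was 79.1 RPM and in high-Apoe cells 401 and 235 RPM.

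Axl, a receptor tyrosine kinase for dying cells, had no read in silent cortex cells against 153 RPM in Apoe-positive cells, where 63 of 287 cells held its reads (22.0%). For 0 of 24 cells the exact interval reaches 14.2%. In hippocampus 1 silent cell held all Axl reads (19.7 RPM against 67.0). Lpl, lipoprotein lipase, had no read in the silent cells of either tissue, against reads in 34 of 287 Apoe-positive cortex cells (11.8%) and 12 of 235 hippocampus cells (5.11%). As its reads and those of Axl lie in few cells, no fold is given for a group without reads. Ank, a pyrophosphate transporter, was at 4.97 against 220 RPM in cortex and at 34.3 against 87.0 RPM in hippocampus. Itgax, which encodes CD11c, was at 32.9 against 154 RPM and at 15.1 against 57.3 RPM. In hippocampus the low-Apoe cells were lower still than the silent cells for Ank (17.7 RPM) and Itgax (1.75 RPM), so the order of these bins was not the same in both tissues.

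The 6 genes Cst7, Clec7a, Itgax, Axl, Ank and Lpl were then counted together in each cell, a set picked after their values had been seen. A gene counted where it reached 1 read per 10000. By this measure 5 of 24 silent cortex cells (20.8%, 7.13 to 42.2%) and 6 of 38 silent hippocampus cells (15.8%, 6.02 to 31.3%) held at least 1 of the genes. The share was 30.5%, 44.8% and 74.0% in low-, middle- and high-Apoe cortex cells and 12.8%, 16.7% and 56.96% in hippocampus. At least 2 of the genes were held by 0 of 24 (0 to 14.2%) and 1 of 38 silent cells (2.63%, 0.0666 to 13.8%), against 57.3% and 43.0% of high-Apoe cells. The hippocampal cell held Itgax at 1.12 and Axl at 6.31 per 10000.

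The other silent cells with such a gene held 1 each. In cortex these were Itgax at 1.295 and 6.09, Clec7a at 19.5, Cst7 at 4.49 and Ank at 1.15 per 10000. In hippocampus they were Ank at 5.58, 5.50 and 1.99 and Itgax at 2.07 and 2.17 per 10000. The cortex cell with Clec7a also had the highest sum of late activated genes of any silent cell, 231 per 10000. In APP/PS1-ApoeKO, where no cell can make intact Apoe, 29.6% of cortex cells and 24.6% of hippocampus cells held at least 1 of the genes and 5.33% and 8.41% at least 2. In C57BL/6 cortex cells without Apoe reads the shares were 9.87% and 0.448%. Genotype, age and sequencing lane differ together between these groups and cannot be told apart.

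**Figure D3:**
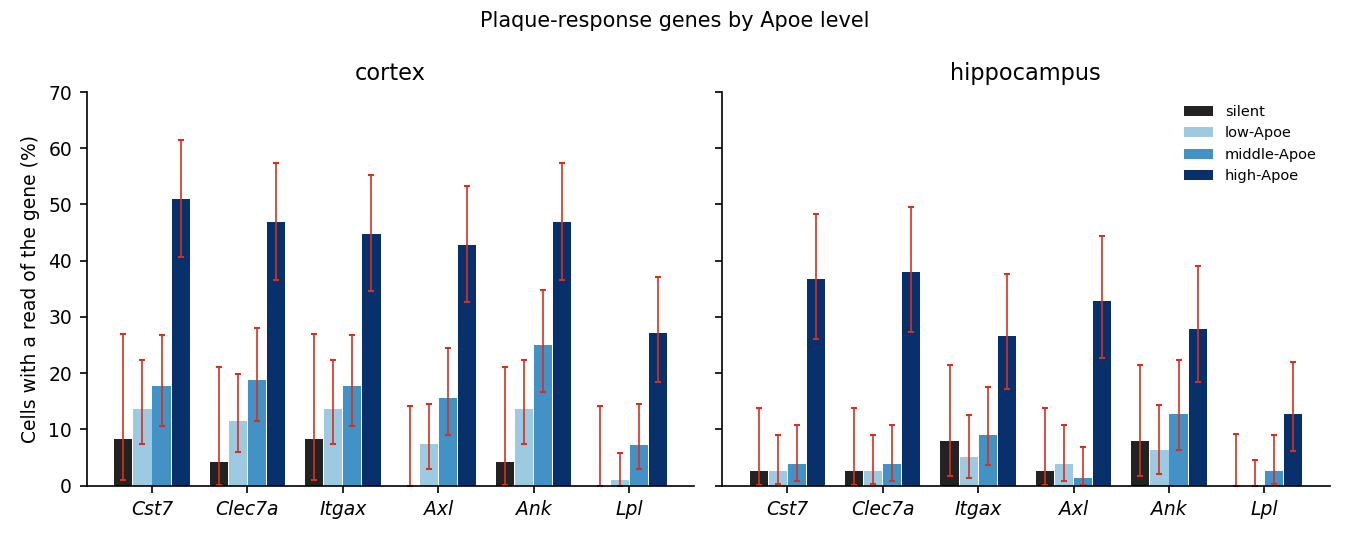
Share of cells with a read of Cst7, Clec7a, Itgax, Axl, Ank and Lpl (vertical axis, percent of cells) in silent, low-Apoe, middle-Apoe and high-Apoe cells of cortex and hippocampus; bars are the shares and lines the exact 95% binomial intervals, which cover counting error only. Cst7 was read in 2 of 24 and 1 of 38 silent cells against 49 of 96 and 29 of 79 high-Apoe cells, and in both tissues the high-Apoe cells have the highest bar for every gene.

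Over all genes, the comparison of silent with Apoe-positive cells is the contrast by which the cells were chosen, and with few silent cells much of it rests on single cells. Of 5757 cortex genes considered (a mean of at least 10 RPM and of at least 10% of cells with a read over both groups), 856 (14.9%) were at least 2-fold higher in silent cells and 811 (14.1%) at least 2-fold lower. In hippocampus the counts were 565 (9.97%) and 554 (9.78%) of 5665 genes, and 882 of the latter kind without plate number 4. Of 5074 genes considered in both tissues, 72 (1.42%) were higher in both and 83 (1.64%) lower in both. The 72 were 8.41% of the cortex and 12.7% of the hippocampus genes called higher, and the 83 were 10.2% and 14.98% of those called lower. Over all genes of the other tissue the shares were 9.97% and 14.9% higher and 9.78% and 14.1% lower. The overlap between the tissues was thus near the share over all genes. Without the single cell with most reads of each gene in each bin, 307 and 255 genes were higher and 1885 and 1295 lower. As the silent bins are much the smaller ones, this setting lowers the silent side more, and part of the shift is built in. Between the low- and high-Apoe cells of cortex, bins of near-equal size, it gave 732 genes higher and 358 lower, against 657 and 283 with all cells.

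Low-Apoe against high-Apoe cells gave 657 genes (11.1%) higher and 283 (4.8%) lower of 5900 in cortex, and 923 (15.7%) and 375 (6.36%) of 5897 in hippocampus. In both tissues 140 genes (2.61% of 5364) were higher and 51 (0.951%) lower. The 10 lowest by the rule for named genes were Cst7, Folr2, Ank, Itgax, Aplp2, Clec7a, Myo5a, Axl, Nrp1 and Myo1e, which holds 5 of the 6 genes counted per cell above. Folr2, a folate receptor, and Aplp2, a relative of the amyloid precursor protein, did not follow the others into the silent cells. Folr2 was at 18.4 and 11.2 RPM in silent cells, 3.48 and 1.18 in low-Apoe and 27.9 and 23.97 in high-Apoe cells. Aplp2 was at 71.2 RPM in the silent cells of both tissues, 37.5 and 25.5 in low-Apoe and 291 and 155 in high-Apoe cells, with reads in 3 of 24 and 5 of 38 silent cells. The 10 highest were Braf, Exog, Yes1, Slco4a1, Il7r, Efl1, Cramp1l, Cnot3, Drosha and Ggta1.

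The genes furthest apart in both tissues between silent and Apoe-positive cells were sparse ones. They are named by rank alone, as the number called in both tissues was near the share over all genes. Nsun5, an RNA methyltransferase gene, was at 104 RPM in silent cortex cells against 14.6 in Apoe-positive cells and at 98.2 against 18.1 RPM in hippocampus, with reads in 4 and 6 silent cells. Fnip1, which encodes a folliculin partner in nutrient sensing, was the most widely read of the 15 highest: 138 against 31.4 RPM with reads in 13 of 24 silent cells, and 82.0 against 27.2 RPM with reads in 18 of 38. The others were Zfp574, Ears2, Ube2d1, Zbtb37, Efnb1, Sgpp1, Eif2ak4, Myo9a, Rnf144b, Svil, Gamt, Fam179b and Dus3l. For Rnf144b 1 hippocampus cell held 91.7% of the reads of silent cells. Slc15a3, an endolysosomal transporter of histidine and small peptides, was among the 15 lowest, at 2.02 against 55.1 RPM and 6.02 against 46.4 RPM. Others of them were Naa15, Ints5, Pnpla8, Agpat3, Timm44, Pigt, Apba1, Kantr, Commd9, Pyroxd2, Itgax, Clint1 and Dnajc15.

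**Figure D4:**
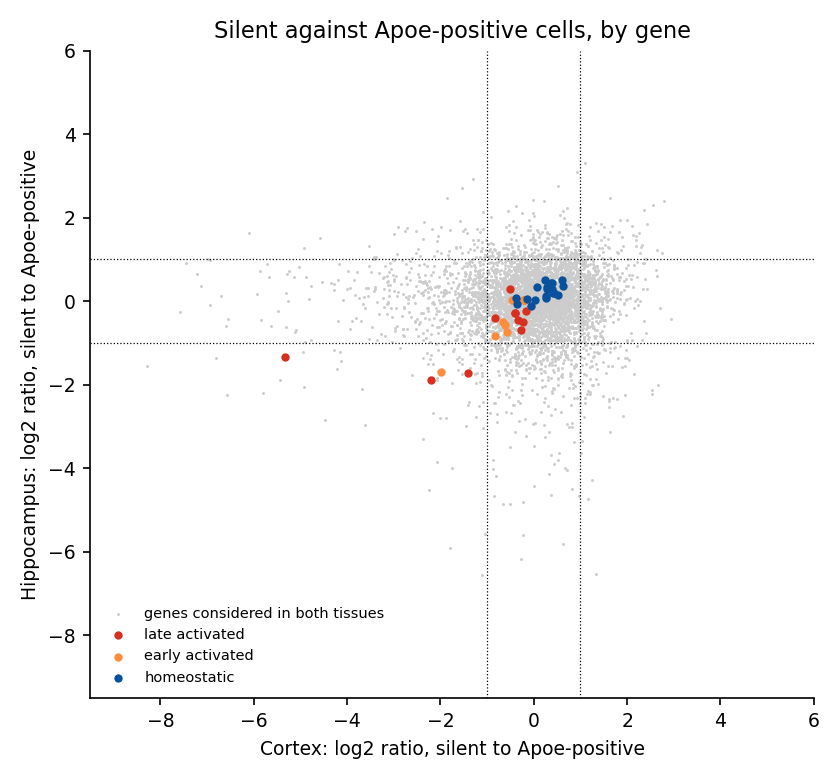
Log2 ratio of RPM (0.5 RPM added) of silent to Apoe-positive cells in cortex (horizontal axis) and hippocampus (vertical axis) for the 5074 genes considered in both tissues, 1 point a gene, with late activated, early activated and homeostatic genes coloured and dotted lines at 2-fold. Most points lie around 0, and past the lines in both tissues lie 72 genes on the higher and 83 on the lower side.

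Gene lists gave a similar order by function against all Apoe-positive cells, but not always against the low-Apoe cells. Members were kept where their mean was at least 1 RPM. The median log2 ratio of all genes considered was 0.11 in cortex and 0.08 in hippocampus, where 2571 of 5757 and 2543 of 5665 genes lay below the Apoe-positive cells, 14.1% and 9.78% of all by at least 2-fold. Of the late activated genes, those of plaque-associated microglia beyond the first step, 22 of 23 were below the Apoe-positive cells in cortex (12 of them at least 2-fold, median -1.33) and 20 of 22 in hippocampus (11 at least 2-fold, median -1.09). With genes without a read in silent cells set at a floor of 3 reads, the medians were -1.34 and -1.12. Under the filter used for all genes, 15 of 15 members were below in cortex (6 at least 2-fold, median -0.51) and 10 of 12 in hippocampus (3 at least 2-fold, median -0.43), so the size of the median came largely from sparse members. Axl, Lpl, Lilrb4a, Spp1, Fabp5 and Lgals3 had no read in silent cortex cells, and Lpl, Lilrb4a, Spp1, Gpnmb, Lgals3 and Ch25h none in silent hippocampus cells.

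The cortex median of this list depended on few cells. It was -5.16 without the cells of plate number 2 and -5.21 on lane 42 by itself, and -4.59 without the single cell with most reads of each gene in each bin. In hippocampus the last setting gave -2.28. That setting lowers the smaller silent bins more than the Apoe-positive cells, so part of its shift is built in. Against the low-Apoe cells alone the medians were -0.31 and 0.12, and against the high-Apoe cells the hippocampal median was -2.39. The silent and the low-Apoe cells thus stood close together on this list.

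Summed per cell, the late activated genes had a median of 129 per 10000 (3.62 to 231) in silent cortex cells and 105 (17.0 to 160) in silent hippocampus cells. The medians of low-, middle- and high-Apoe cells were 118, 144 and 223 in cortex and 108, 129 and 175 in hippocampus. Silent cells held reads of a median of 8 of the 24 members in both tissues, and high-Apoe cells of 12 and 10. The level above which 25% of all cells of a tissue lay was 213 per 10000 in cortex and 160 in hippocampus. Above it were 1 of 24 (4.17%) and 1 of 38 (2.63%) silent cells, 8.42% and 11.5% of low-Apoe, 19.8% and 20.5% of middle-Apoe, and 52.1% and 54.4% of high-Apoe cells. For comparison the median was 102 in C57BL/6 cells without Apoe reads and 128 and 129 in APP/PS1-ApoeKO cortex and hippocampus. Cells with 1 to 10 Apoe reads had medians of 93.2 and 92.7.

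Early activated genes (Tyrobp, Ctsb, Ctsd, B2m, Fth1, Lyz2, Timp2 and Cst3) were below the Apoe-positive cells for 8 of 8 members in cortex (1 at least 2-fold, median -0.59) and 6 of 8 in hippocampus (1 at least 2-fold, median -0.54). The counts past 2-fold were near the shares of 14.1% and 9.78% over all genes. Cst3, the cystatin C gene, dominates the sum, so the per-cell levels leave it out. Those medians were 155 per 10000 in silent cortex cells and 166, 198 and 305 in low-, middle- and high-Apoe cells. In hippocampus they were 140, 140, 170 and 266. The APP/PS1-ApoeKO cells stood at 190 and 189 and C57BL/6 cells without Apoe reads at 145.

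Homeostatic genes were above the Apoe-positive cells for 17 of 21 members in cortex (median 0.29) and 19 of 21 in hippocampus (median 0.30), none of them 2-fold. Against the low-Apoe cells the medians shrank to 0.14 and 0.06, and against the high-Apoe cells they were 0.54 and 0.57. Summed per cell without Cst3, silent cells had medians of 658 and 740 per 10000, low-Apoe cells 639 and 730, middle-Apoe cells 608 and 640 and high-Apoe cells 516 and 555. C57BL/6 cells without Apoe reads stood at 705 and APP/PS1-ApoeKO cells at 680 and 764.

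**Figure D5:**
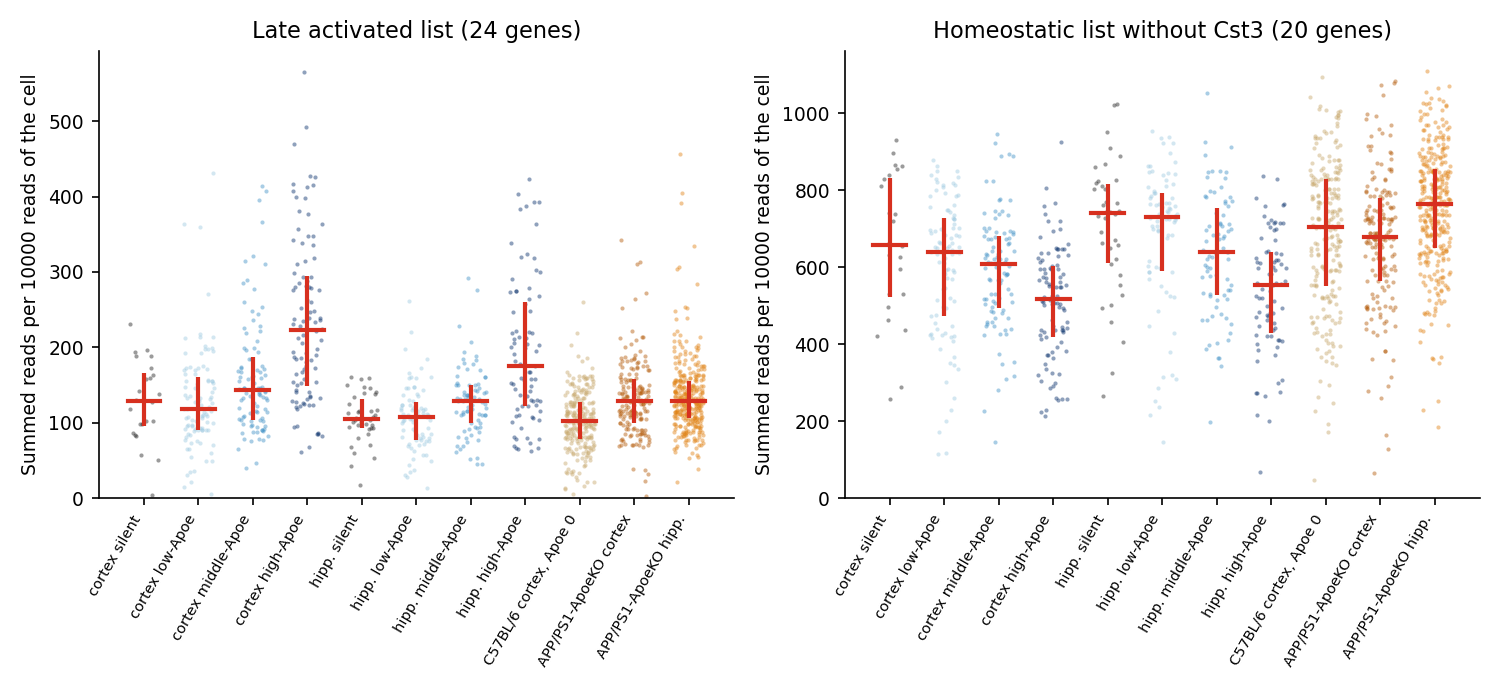
Reads per 10000 summed over the late activated list and over the homeostatic list without Cst3 in each cell, by Apoe bin and for 3 other groups; each point is 1 cell, the horizontal line the median and the vertical line the interquartile range. Late activated genes have medians of 129 and 105 in silent cells and 223 and 175 in high-Apoe cells of cortex and hippocampus, and homeostatic genes run the other way.

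Lysosomal genes were below the Apoe-positive cells for 14 of 20 members in each tissue (1 and 2 at least 2-fold), with medians of -0.22 and -0.28. The shares past 2-fold were no larger than, or near, those over all genes. The per-cell lysosomal sum had medians of 614 and 601 per 10000 in silent and 611 and 609 in low-Apoe cells. In high-Apoe cells the medians were 786 and 793. Of the glycolysis genes 12 of 13 were below in cortex (4 at least 2-fold, median -0.71) and 11 of 13 in hippocampus (4 at least 2-fold, median -0.39). Under the filter used for all genes, 4 of 12 and 3 of 11 were at least 2-fold lower, against 14.1% and 9.78% of all genes. Gapdh, a central glycolytic enzyme, was at 133 and 117 RPM in silent cells and at 334 and 222 RPM in high-Apoe cells. Pfkl, the liver-type phosphofructokinase, had 1 read in 1 of 24 silent cortex cells against 29 of 95 low-Apoe cells with reads, and was at 37.3 RPM in silent hippocampus cells against 82.7 RPM in low-Apoe cells.

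Cytokine and chemokine genes were low in silent cells also by the measure of the low-Apoe cells. Against all Apoe-positive cells 10 of 12 members were below in each tissue (7 and 6 at least 2-fold), with medians of -1.19 and -1.06. Against the low-Apoe cells 9 of 11 were below in each (6 at least 2-fold), with medians of -1.11 and -1.13, where 15.5% of all cortex genes and 13.4% of all hippocampus genes were lower by that much. Against all Apoe-positive cells the shares of all genes were 14.1% and 9.78%. Most members are too sparse for the filter used for all genes. Of the 4 cortex and 5 hippocampus members that pass it, 3 and 4 were below the Apoe-positive cells (2 and 1 at least 2-fold, medians -0.93 and -0.36) and 3 and 5 below the low-Apoe cells (2 at least 2-fold in each, medians -0.92 and -0.86). Il1a, an interleukin-1 gene that resting microglia transcribe, was at 63.7 RPM in silent cortex cells against 171 in low-Apoe and 80.9 in high-Apoe cells, and at 74.3 RPM in hippocampus against 122 and 32.4. By summed counts, low-Apoe cells thus had the highest Il1a in both tissues. Cxcl16, a membrane-bound chemokine, was at 64.1 and 79.6 RPM in silent cells, 139 and 121 in low-Apoe and 237 and 166 in high-Apoe cells. Il1b and Tnf had 1 read-positive silent cell between them, in hippocampus. The list is sparse: a silent cortex cell had a median of 1 of the 14 members.

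Genes that handle the lipid cargo of apolipoprotein E were mostly lower in silent cortex cells. Of the lipid efflux and LXR list 18 of 21 members were below the Apoe-positive cells in cortex (8 at least 2-fold, median -0.63) and 14 of 20 in hippocampus (5 at least 2-fold, median -0.26). Under the filter used for all genes, 15 of 18 (5 at least 2-fold, median -0.55) and 11 of 17 (2 at least 2-fold, median -0.14) were below. Of all genes 14.1% in cortex and 9.78% in hippocampus were at least 2-fold lower, so the hippocampal count was near that share. Abca1, which loads cholesterol onto apolipoprotein E, stood at 407 and 401 RPM in silent cells and at 416 and 543 RPM in high-Apoe cells. Abcg1, a second sterol exporter, was at 159 and 135 RPM against 170 and 179 RPM. Npc2, which moves cholesterol out of lysosomes, was at 621 and 656 RPM against 1238 and 1000.65 RPM. Lipa, the lysosomal acid lipase, was at 99.7 and 68.8 RPM against 194 and 185 RPM in all Apoe-positive cells. Soat1, which esterifies cholesterol for storage, was lower in silent cortex cells (103 against 319 RPM) and higher in silent hippocampus cells (290 against 225 RPM). The LXR targets Abca1 and Abcg1 were read in 17 and 12 of 24 silent cortex cells. In hippocampus they were read in 30 and 19 of 38 silent cells. The part of LXR in the absence of Apoe reads was not tested. Cholesterol synthesis genes were below for 8 of 13 and 10 of 13 members (medians -1.48 and -1.14), with the sign reversed to 0.17 and 0.32 over members of at least 10 RPM. Only 1 member in each tissue passes the filter used for all genes, at -0.26 in cortex and 0.32 in hippocampus.

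Genes of antigen presentation through MHC class I were below the Apoe-positive cells for 9 of 11 cortex members (median -0.31) and 7 of 11 hippocampus members (median -0.26). In hippocampus H2-Q7 and Nlrc5 had no read in silent cells, and of the 9 members that pass the filter used for all genes 5 were below and 4 above, none by 2-fold, with a median of -0.057. H2-K1, a classical class I heavy chain, was at 208 RPM in silent cortex cells against 633 in Apoe-positive cells, and at 552 against 574 RPM in hippocampus, so its difference was seen in 1 tissue. B2m, the shared light chain, was at 2693 and 3136 RPM in silent cells and at 4318 and 3759 RPM in high-Apoe cells. The per-cell sum of the list had medians of 39.4 and 44.1 per 10000 in silent cells, 72.0 and 59.4 in high-Apoe cells, and 66.8 and 63.9 in APP/PS1-ApoeKO cells. Knockout cells, which lack Apoe by deletion, thus had the higher class I sum, and genotype, age and lane cannot be told apart in this difference.

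Across the Apoe-positive cells alone, Lyz2 and the lysosomal and activation genes named above were among the genes whose level followed Apoe most closely. This ranking used the Apoe values that set the bins and was among the rules that named genes. It is therefore not a result separate from the order across the bins. Spearman's rho between a gene and Apoe, both per 10000 reads, over 287 cortex and 235 hippocampus cells was 0.51 and 0.52 for Lyz2, 0.44 and 0.46 for Ctsb, 0.44 and 0.46 for Cd63, 0.40 and 0.43 for Fth1, 0.40 and 0.40 for Tyrobp and 0.38 and 0.48 for Ctsd. The other 4 of the 10 highest were Fau, Rpl41, Rps29 and Eef1a1, genes of the translation machinery. At the other end were Stab1 (-0.36 and -0.34), Malat1 (-0.35 and -0.33), Cd164 (-0.33 and -0.34), Tmem119 (-0.30 and -0.33), P2ry12 (-0.32 and -0.30) and Selplg (-0.28 and -0.32), with Ivns1abp, Srgap2 and Crybb1 also among the 10 lowest. These rank correlations are a description: both values of a pair come from the library of the same cell and are divided by the same total. No test was made.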

How the data were processed

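Single cells were sorted as CD11b+/DAPI- and sequenced with a modified SmartSeq2 protocol, per the labels' protocols. The deposited values are raw counts of reads per gene and cell against mm10. STAR 2.5.2, featureCounts 1.5.1 and Seurat 2.3.1 are named, without roles, per the submitters' processing notes. Column totals equalled the read totals in the labels for all 1713 cells that have them. The members, lists and measures were chosen with earlier results of these data known.

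Counts were summed over the cells of each bin and divided by the bin's total (RPM). Ratios are on the log2 scale with 0.5 RPM added. Genes were considered at a mean of at least 10 RPM and a mean of at least 10% of cells with a read, and list members at 1 RPM. A 2-fold difference counted as called. Shares have exact Clopper-Pearson 95% intervals, and ratios of counts exact ones. Because the labels name no animals, no test was run. Thinning drew 100000 reads per cell. No doublet caller was run. The scripts were tested on simulated data. Named genes were all list members, the 15 highest and 15 lowest in both tissues for silent against Apoe-positive cells, the 10 highest and 10 lowest for low- against high-Apoe cells, and the 10 highest and 10 lowest rank correlations; a few of these are not reported here. Gene positions are from GENCODE vM21. Alternatives were a thinned table, at most 10 Apoe reads as silent, each lane, each plate number left out, equal weight per cell, other filters and other pseudocounts. Python 3.11.15 with numpy 2.4.6, scipy 1.17.1, pandas 2.3.3 and matplotlib 3.10.9 was used.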

Additional observations from a re-analysis of the deposited data

Results flagged for a closer look

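In 3 lists the median log2 ratio of silent to Apoe-positive cells lay on opposite sides of 0 in the 2 tissues. The difference between the tissues was not tested, since each is a single sample. MHC class II genes had a median of -1.63 in cortex and 0.54 in hippocampus. Cd74, the class II invariant chain, was at 76.2 RPM in silent cortex cells (6 of 24 cells with a read) and at 242 RPM in silent hippocampus cells (5 of 38). H2-Ab1 was at 0.0721 RPM (1 cell) and 154 RPM (4 cells), so the hippocampal value rests on few cells, and without plate number 4 the hippocampal median was -0.34. Over the 3 members in each tissue that pass the filter used for all genes, the medians were -0.85 and 0.048. Interferon response genes had medians of -1.78 in cortex and 0.54 in hippocampus. Without plate number 3 the hippocampal median was -0.85. Over the members that pass the filter used for all genes (3 in cortex and 5 in hippocampus) the medians were 0.72 and 1.001, so the opposite signs came from sparse members, and over members of at least 10 RPM the cortex median was 0.16. Immediate early and stress genes, which respond to dissociation, had medians of -0.53 in cortex and 0.55 in hippocampus.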

How the results depend on the processing

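No paired analysis was possible because no result comes from a test: each tissue is 1 sample. Shares of silent cells were 13.2% and 19.4% with up to 10 Apoe reads counted as silent. Leaving out a plate number gave 6.78 to 8.41% in cortex and 12.8 to 14.5% in hippocampus. The counts of genes at least 2-fold apart between silent and Apoe-positive cells depended most on the filter and on single cells. Leaving out the top cell of each gene lowers the silent side more, as those bins are smaller, so part of that shift is built in. Higher in cortex were 1332 genes on lane 42, 307 without the top cell of each gene, 188 at 50 RPM and 25% of cells, 2151 without a filter, and 925 to 1086 without a plate number. Lower in cortex were 519 after thinning, 484 with up to 10 reads as silent, 1236 on lane 42, 1885 without the top cell, 121 at 50 RPM, 5579 without a filter, and 898 to 1021 without a plate number. Higher in hippocampus were 1025 against the high-Apoe cells, 1031 and 928 on lanes 41 and 42, 255 without the top cell, 99 at 50 RPM, 2070 without a filter, and 664 to 820 without a plate number. Lower in hippocampus were 1084 and 930 on the lanes, 1295 without the top cell, 48 at 50 RPM, 4523 without a filter, and 614 to 882 without a plate number.

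The late activated median in cortex was -5.21 on lane 42, -4.59 without the top cell and -5.16 to -0.91 without a plate number. In hippocampus it was 0.12 against the low-Apoe and -2.39 against the high-Apoe cells, -2.28 without the top cell and -1.14 to -0.67 without a plate number. The homeostatic median in cortex was 0.14 and 0.54 against the low- and high-Apoe cells and 0.19 to 0.33 without a plate number. In hippocampus it was 0.057 and 0.57 against those cells, 0.24 with equal weight per cell, 0.17 after thinning, 0.15 with up to 10 reads as silent, 0.15 and 0.23 on the lanes, 0.22 without the top cell, 0.22 in cells of at least 1500 genes, an alternative added after seeing the data, and 0.17 to 0.30 without a plate number.

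Over members of at least 10 RPM the interferon median in cortex turned to 0.16, and the cholesterol synthesis medians to 0.17 and 0.32. Kantr in cortex turned to 0.83 after thinning and 0.48 with up to 10 reads as silent, and under the latter Csf1 turned to 0.47 and Lilrb4a to 0.084. Against the low-Apoe cells Clec7a in cortex was at 0.12 and Itgax, Axl and Ank in hippocampus at 2.79, 0.36 and 0.94. Rnf144b in hippocampus turned to -1.55 without its top cell. The causes were not tested. Of 384 values of the other lists 331 moved by less than the spread between plate numbers, and of 1425 values of single genes 1284 did. That spread comes from few silent cells per plate number and reached 3.10 on the log2 scale for interferon genes in hippocampus. It is not a spread between batches, as the plate numbers are not taken as physical plates. The values of single genes leave out the lane and plate settings. These counts therefore do not show that the values are stable. With 24 and 38 silent cells, a gene read in few cells cannot be measured well.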

Other observations

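The median log2 ratio of silent to Apoe-positive cells was -0.13 and -0.12 for the Trem2 signalling list in cortex and hippocampus, -0.13 and -0.07 for complement genes, 0.34 and 0.15 for TGF-beta genes, 0.14 and 0.22 for microglial transcription factors and -0.04 and -0.17 for respiratory chain genes. Among TGF-beta receptors, Tgfbr1 was at 1166 RPM in silent cortex cells against 809 in Apoe-positive cells and at 819 against 736 RPM in hippocampus. Gpr34, a lysophosphatidylserine receptor of microglia, was at 3365 against 2169 RPM and 2718 against 2103 RPM.

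Interferon response genes summed to a median of 0.63 and 0.09 per 10000 in silent cells of cortex and hippocampus (highest cells 64.6 and 70.5) and of 2.01 and 2.17 in APP/PS1-ApoeKO cells (highest cells 117 and 103). The knockout cells thus had the higher medians and the ranges overlapped. Genotype, age and lane differ together between these groups and cannot be told apart.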
